A study of Mus musculus with 8 samples.

Results

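Doublecortin, the stathmins and 4 further genes of neurite growth were followed in single cells of the adult mouse dentate gyrus. The 9 genes, Dcx, Stmn1, Stmn2, Stmn3, Stmn4, Map1b, Gap43, Cd24a and Cdk5r1, were taken by name from the gene list of the deposited matrix, 9 of 31058 rows. Their levels were read along the path from quiescent stem cell to immature granule neuron, in dividing against non-dividing cells, and in the oligodendrocyte lineage.

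The cells came from Ki67TD-NES mice on a mixed C57BL/6J and CD1 background, heterozygous for Ki67-creERT2, Nestin-GFP and tdTomato in every group. Tamoxifen was given by oral gavage over 6 days to every group and tissue was taken on day 8, so that cells that had expressed Ki67, and their progeny, became red. GFP+tdT+ and GFP+tdT– cells were sorted from pooled males and females and sequenced by 10x Genomics 3′ chemistry, which counts unique molecular identifiers (UMIs). The 7 experiments, in 8 libraries, comprised 1 of mice aged 1 month, 3 of 2 months and 3 of 6–8 months (6 months in the labels). The first 2-month experiment was sorted into separate libraries, one of them labelled GFP+tdT+ and GFP-tdT-. Version 2 reagents served only the 2-month mice and Version 3 reagents the remaining ages, and this age and Version 2 cannot be told apart. Since the sort was set on a Nestin reporter, only neurons that still carried green fluorescence were collected, apart from any double-negative cells of that label.

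Doublecortin is a microtubule-binding protein of migrating and newborn neurons and the usual marker of neurogenesis in the hippocampus. The stathmins bind tubulin dimers and favour microtubule disassembly. Stmn1 is cytosolic and is found in many dividing cells, whereas Stmn2 (SCG10), Stmn3 (SCLIP) and Stmn4 (RB3) carry a membrane anchor and are known from neurons. Map1b is a microtubule-associated protein of growing axons, Gap43 a membrane protein of growth cones, Cd24a a small lipid-anchored surface protein of young neurons, and Cdk5r1 encodes p35, an activator of the kinase Cdk5, which acts in neuronal migration.

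Upstream sequence was held for Dcx, Map1b and Stmn3 in the RefSeq-based table used here (GRCm38.p6), and not for Stmn1, Stmn2, Stmn4, Gap43, Cd24a and Cdk5r1. These 3 stretches are shown because they were the ones held. Outside neurons, Dcx and Stmn3 were found in oligodendrocyte precursors and were low once these matured. Map1b was highest in newly formed oligodendrocytes. A link between sequence and level was not tested. Each runs 5′ to 3′ on the – strand and ends just before the outermost annotated start. Short motifs were searched on both strands, and matches are in capitals: CAGATG and also CAGCTG, which are forms of the E-box that basic helix-loop-helix factors bind, the box CCAAT, the box spelled TATAAA, the Sp-type site GGGCGG and the site TTCCCGC of the E2F type.
Dcx, chrX:143933312-143933469: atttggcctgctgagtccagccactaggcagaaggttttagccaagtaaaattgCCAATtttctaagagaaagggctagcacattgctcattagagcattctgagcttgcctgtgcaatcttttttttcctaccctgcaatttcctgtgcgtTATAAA
Map1b, chr13:99516603-99516852: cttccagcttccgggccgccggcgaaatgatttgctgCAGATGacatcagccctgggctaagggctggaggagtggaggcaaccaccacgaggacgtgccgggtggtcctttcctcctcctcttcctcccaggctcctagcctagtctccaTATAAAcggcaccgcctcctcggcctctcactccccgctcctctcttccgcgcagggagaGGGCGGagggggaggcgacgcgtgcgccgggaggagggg
Stmn3, chr2:181314501-181314750: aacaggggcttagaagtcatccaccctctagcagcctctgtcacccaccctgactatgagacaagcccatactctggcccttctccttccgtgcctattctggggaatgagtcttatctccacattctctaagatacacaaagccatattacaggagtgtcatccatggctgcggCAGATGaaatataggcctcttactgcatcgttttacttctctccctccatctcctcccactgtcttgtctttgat

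Dcx held 1 CCAAT and 1 TATAAA in 158 bases. In stretches of the same length and place, 21.2% of 32851 promoters held CCAAT and 7.57% TATAAA. Map1b held 1 CAGATG, 1 TATAAA and 1 GGGCGG in 250 bases, against 14.4%, 12.4% and 32.7% of promoters, and Stmn3 held 1 CAGATG. The Map1b stretch was 66.4% G or C and the Stmn3 stretch 48.8%, against a median of 52.4% over all promoters. The matches are letters in a window and were not tested as binding sites.

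The matrix held 26036 barcodes, of which 24376 passed the limits on genes (more than 500) and mitochondrial share (less than 10%). Among the cells that passed, 103 carried a barcode sequence that more than 1 library held. Library totals ran from 4861883 to 43826338 UMIs and median UMIs per barcode from 1960 to 7636.5. Classes were gated on marker genes and never on the 9 genes, and each class name stands for such a gate and is to be read as "-like". Neuronal cells carried at least 4 (Version 2) or 5 (Version 3) of 13 neuronal commitment markers. Among them, intermediate progenitor cells (IPCs) had at least 1 (Version 2) or 2 (Version 3) UMIs of Eomes and Neurog2. They had fewer than 2 or 4 of 6 late neuronal markers. Early neuroblasts had fewer of these UMIs and as few late markers. Immature neurons also had fewer of these UMIs, and at least 2 or 4 late markers. A Version 3 cell of the last 2 classes could thus hold 1 UMI of Eomes or Neurog2. Dividing cells carried at least 4 or 6 of 20 cell cycle markers, and non-dividing cells at most 1 or 2. IPCs between these limits (244) were left out, so dividing and non-dividing IPCs do not make up all IPCs. Cells with both IPC and late markers (472) were left out. The gates gave 516 non-dividing IPCs, 568 dividing IPCs, 535 early neuroblasts, 936 immature neurons, 142 dividing radial-glia-like cells, 1747 quiescent stem cells and 5881 oligodendrocyte precursor cells (OPCs). The summed Eomes and Neurog2 level was 731 ± 85.0 CPM (UMIs per 1000000 UMIs of the class; SD, n = 7 experiments) in IPCs and 33.1 ± 32.4 CPM in early neuroblasts. Late markers were at 453 ± 179 CPM in IPCs, 1266 ± 680 CPM in early neuroblasts and 2482 ± 295 CPM in immature neurons. The gates were set on these same markers, so these levels follow from the gates and do not test the class names. Early neuroblasts, gated partly on markers not seen, were shallower than non-dividing IPCs and immature neurons in all 7 experiments. Their median depth was 2236.5 to 6974.5 UMIs per cell, against 2614 to 10676 and 2309 to 8973. With gates at 1500 UMIs, which assign classes at a fixed depth, no call of the 9 genes between these classes was lost. The part of depth in the levels was not tested. The experiment was the replicate, and a class entered with at least 5 cells in an experiment.

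The second experiment at 2 months stood apart by oligodendrocyte RNA in all other cells. The summed level of 7 markers of mature oligodendrocytes was 946 CPM in its IPCs and 1612 CPM in its quiescent stem cells, against 10.9 to 248 and 19.8 to 566 CPM in the other experiments. Stmn4, which is high in mature oligodendrocytes, moved with them: in the same quiescent stem cells it was 153 CPM, against 10.9 to 21.0 CPM elsewhere. The Stmn4 tests between neuronal classes are therefore given with and without that experiment. Stmn1, also high in mature oligodendrocytes, was highest in that experiment in mural cells (261 CPM, others 31.5 to 68.5 CPM). The same held in astrocyte-like cells (400 CPM, others 85.8 to 208 CPM) and OPCs (378 CPM, others 86.9 to 180 CPM). In IPCs, early neuroblasts and immature neurons, Stmn1 of that experiment lay within the range of the others.

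**Figure D1:**
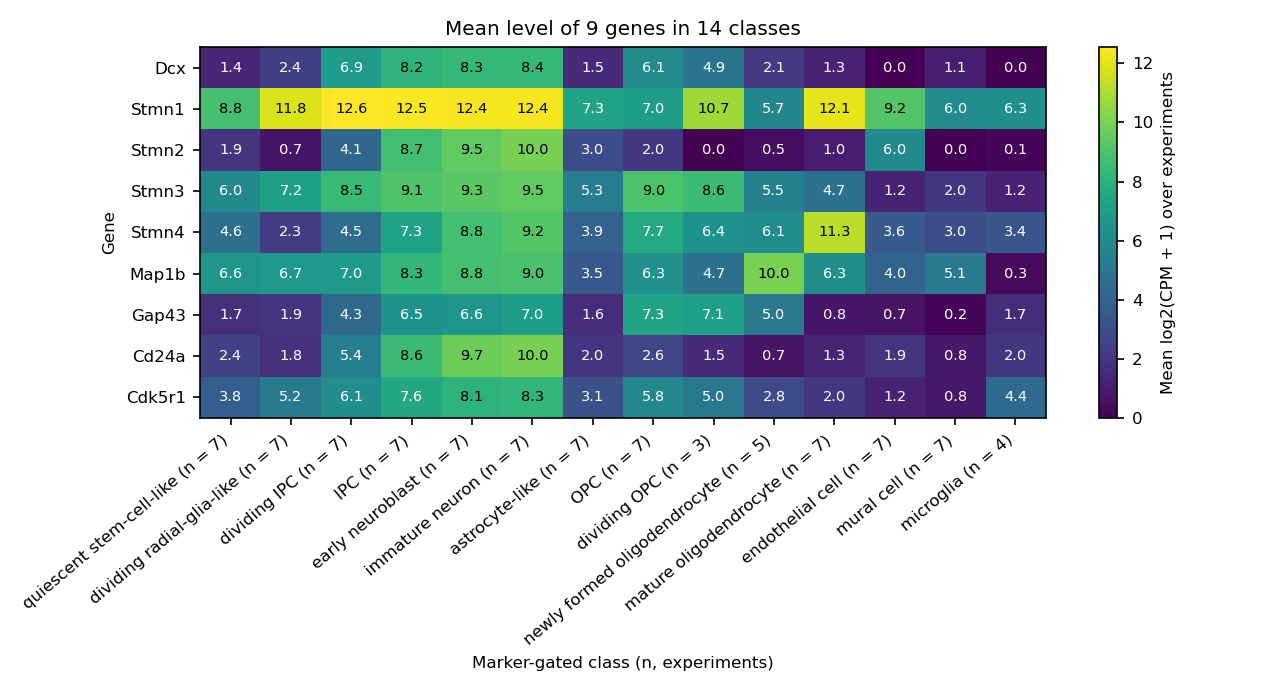
Heat map of the mean log2(CPM + 1) of each gene (rows) in 14 classes (columns, with n experiments), each cell giving the mean over experiments. Stmn1 lay between 11.84 and 12.56 in dividing radial-glia-like cells, IPCs, early neuroblasts and immature neurons, Stmn4 was highest in mature oligodendrocytes at 11.26, and Map1b in newly formed oligodendrocytes at 10.03.

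Along the granule lineage the 9 genes did not share 1 course. Stmn1 was near its immature neuron level in dividing IPCs, where Stmn3 stood at 50.9 ± 5.08% of that level and Stmn2, Stmn4 and Cd24a were low. At a fixed depth of 1500 UMIs per cell, a mean of 0.740 ± 0.230 of the 9 genes (SD, n = 7 experiments) was seen per quiescent stem cell, 1.45 ± 0.270 per dividing radial-glia-like cell and 1.92 ± 0.241 per dividing IPC. The number was 3.52 ± 0.175 in non-dividing IPCs, 4.69 ± 0.228 in early neuroblasts and 5.13 ± 0.213 in immature neurons. The ranges of non-dividing IPCs (3.22 to 3.77) and early neuroblasts (from 4.42) did not overlap, and those of early neuroblasts and immature neurons (from 4.91) did.

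**Figure D2:**
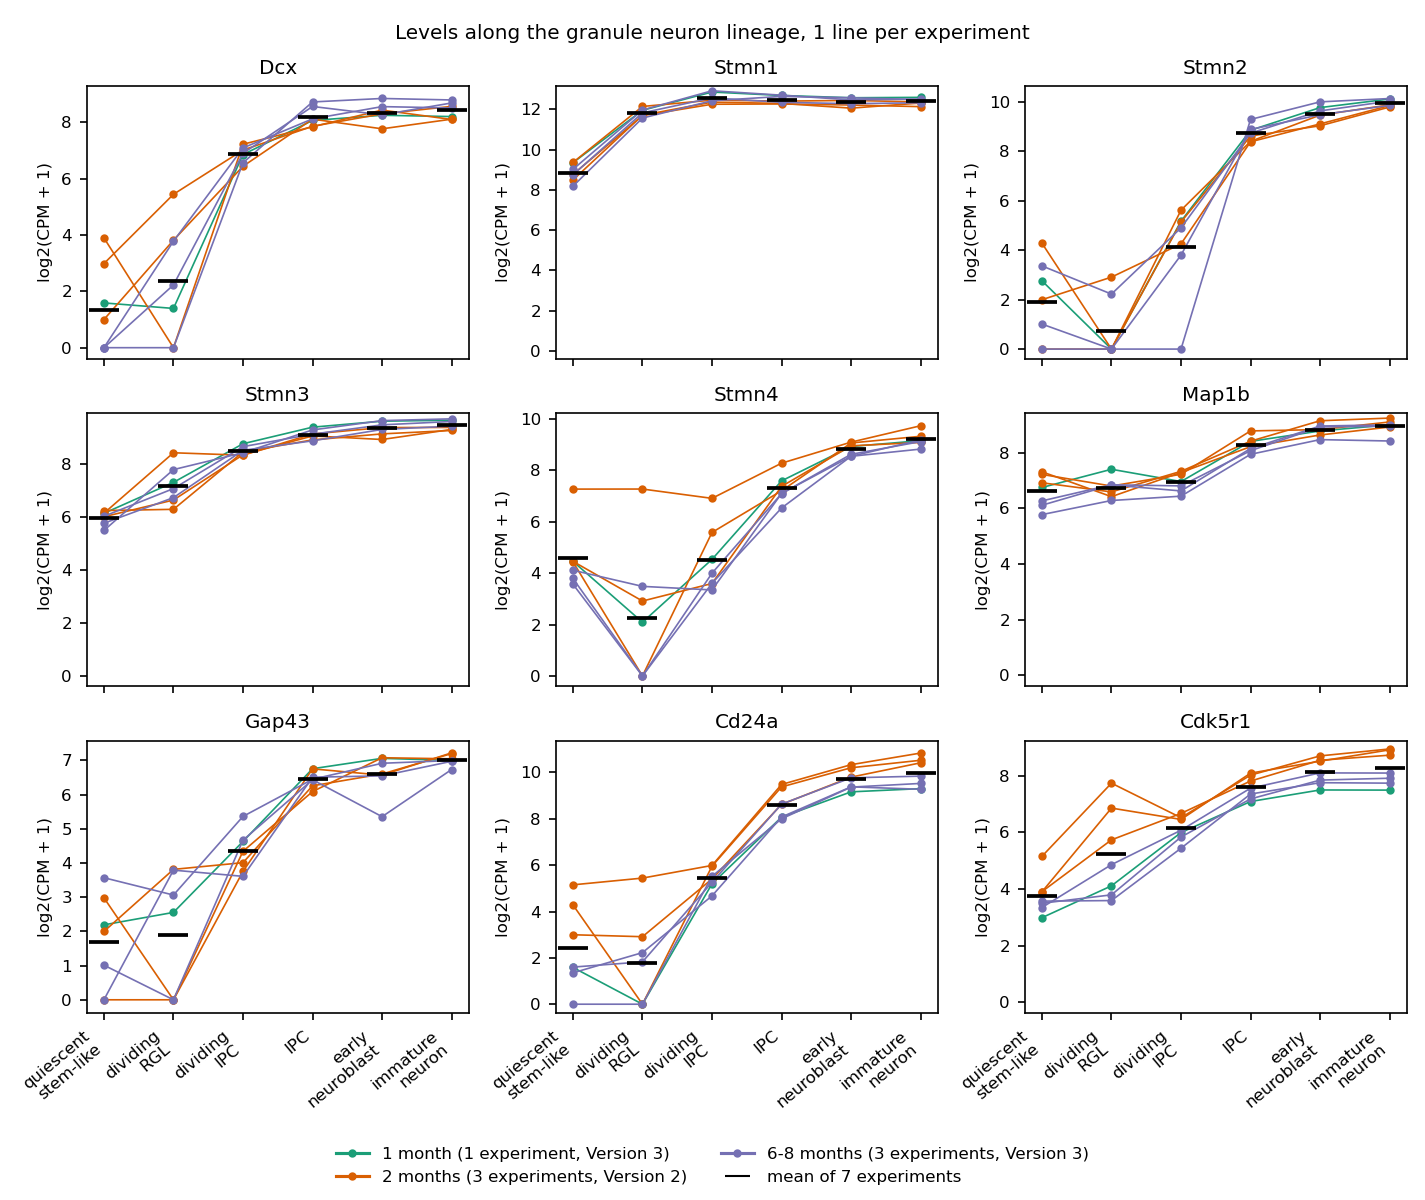
Level of each gene, as log2(CPM + 1), in 6 classes ordered from quiescent stem cells to immature neurons, with 1 line per experiment coloured by age and chemistry and black bars for the mean of 7 experiments. Stmn1 rose before the neuronal classes, whereas Stmn2 and Cd24a stood at a mean of 4.13 and 5.43 in dividing IPCs and at 8.74 and 8.61 in non-dividing IPCs.

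From non-dividing IPC to early neuroblast, 7 of the 9 genes rose and none fell. Of 4283 genes tested with edgeR's quasi-likelihood method (experiment as a block, Benjamini-Hochberg adjusted p under 0.05), 13.6% were higher and 24.5% were called in either direction. The median log2 fold change of the 9 genes was 0.57, against -0.00 over all genes tested.

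Stmn4 rose most. In non-dividing IPCs it had a lowest, median and highest level of 91.4, 146 and 309 CPM, and in early neuroblasts of 372, 484 and 545 CPM. All 7 experiments were higher in early neuroblasts and the groups did not overlap. The log2 fold change was 1.45 ± 0.10 (SE; adjusted p = 1.57e-18 in edgeR), and 1.55 ± 0.10 without the second experiment at 2 months. Cd24a had 255, 394 and 714 CPM in IPCs and 573, 872 and 1292 CPM in early neuroblasts. It was higher in 7 of 7 experiments, although the groups overlapped, by a log2 fold change of 1.14 ± 0.07 (edgeR adjusted p = 8.36e-19). Stmn2, the stathmin of growing axons, went from 334, 427 and 628 CPM to 525, 716 and 1028 CPM, a log2 fold change of 0.84 ± 0.07 (edgeR adjusted p = 7.68e-14), again in 7 of 7 experiments and with overlapping groups.

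The remaining changes were smaller. Map1b rose by a log2 fold change of 0.60 ± 0.08 and Cdk5r1 by 0.57 ± 0.09, each in 7 of 7 experiments (edgeR adjusted p = 7.26e-08 and 1.89e-06). Stmn3 rose by 0.32 ± 0.07 in 6 of 7 (edgeR adjusted p = 0.00031). Dcx was at 228, 275 and 420 CPM in IPCs and 217, 313 and 458 CPM in early neuroblasts, so that most of its level was present before this step. Its log2 fold change of 0.24 ± 0.09 passed narrowly (edgeR adjusted p = 0.034, higher in 5 of 7 experiments) and the call was lost in 9 of 14 alternatives, with adjusted p-values between 0.0016 and 0.47 over all of them. Stmn1 (5773 ± 777 against 5369 ± 704 CPM, edgeR adjusted p = 0.55) and Gap43 (88.4 ± 14.9 against 101 ± 32.5 CPM, edgeR adjusted p = 0.22) did not pass. For Gap43 the call depended on the third experiment at 6–8 months and on the gates. The early neuroblasts of that experiment held 39.9 CPM, from 13 UMIs. Without it the log2 fold change was 0.39 (edgeR adjusted p = 0.036). With cells gated at 1500 UMIs the Gap43 log2 fold change was 0.66 (edgeR adjusted p = 1.74e-05).

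From early neuroblast to immature neuron, 3 of the 9 genes rose, all of them already among those that rose a step earlier. Of 3843 genes tested, 1.09% were higher and 2.13% were called in either direction. Stmn2 reached 889, 945 and 1128 CPM, with a log2 fold change of 0.38 ± 0.06 (edgeR adjusted p = 1.1e-07). Stmn4 reached 452, 567 and 848 CPM, with 0.37 ± 0.06 (edgeR adjusted p = 1.53e-05), and 0.32 ± 0.07 without the second experiment at 2 months. Both were higher in 7 of 7 experiments, with groups that overlapped. Cd24a reached 619, 916 and 1829 CPM, higher in 6 of 7 experiments. Its log2 fold change was 0.22 ± 0.06 (edgeR adjusted p = 0.0087), but 0.09 in the Version 3 experiments alone (adjusted p = 0.71), 0.19 without the second experiment at 2 months (adjusted p = 0.080) and 0.17 without the third (adjusted p = 0.13). Dcx and Stmn1 had log2 fold changes of 0.00 ± 0.07 and -0.00 ± 0.04, with intervals of ±2 SE from -0.14 to 0.14 and from -0.09 to 0.09. Gap43, with 101 ± 32.5 and 130 ± 14.4 CPM, did not pass (edgeR adjusted p = 0.39). With cells gated at 1500 UMIs, which also moved cells between the classes (716 early neuroblasts and 751 immature neurons), 520 genes were called in place of 82, among them Cdk5r1 with a log2 fold change of 0.47 (adjusted p = 8.6e-09) and Map1b with 0.18 (adjusted p = 0.020).

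How much of the immature neuron level a gene had reached in non-dividing IPCs put the 9 genes in order. Stmn1 stood at 106 ± 5.77% (SD, n = 7 experiments), Dcx at 85.6 ± 13.2% and Stmn3 at 77.8 ± 6.54%. Gap43 was at 68.7 ± 13.1%, Map1b at 63.5 ± 9.67% and Cdk5r1 at 63.3 ± 10.3%. The latest were Stmn2 at 43.6 ± 7.39%, Cd24a at 39.5 ± 5.88% and Stmn4 at 27.7 ± 7.06%, which was highest, at 36.4%, in the second experiment at 2 months. Dcx, the usual marker, stood among the early genes of the set. The 472 cells with both IPC and late markers are outside this order. They held 793 ± 194 CPM of Stmn2, 725 ± 306 CPM of Cd24a and 403 ± 82.5 CPM of Stmn4 (SD, n = 7). These means lay between those of non-dividing IPCs and immature neurons. Dcx was at 403 ± 108 CPM in them, its highest class mean. The order with these cells counted as IPCs was not tested.

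Of 36 pairs, 28 differed on the log2(CPM + 1) scale in a two-sided exact sign-flip test over the 7 experiments (Benjamini-Hochberg adjusted p under 0.05), and 25 were at the smallest p that 7 experiments allow, 0.016. Of the 8 neighbouring pairs, 3 differed. Stmn1 lay above Dcx by a log2 difference of 0.33 ± 0.26 (SD, n = 7; exact adjusted p = 0.040, 6 of 7 experiments). Cdk5r1 lay above Stmn2 by 0.54 ± 0.30 (exact adjusted p = 0.022, 7 of 7) and Cd24a above Stmn4 by 0.54 ± 0.48 (exact adjusted p = 0.040, 6 of 7, with the second experiment at 2 months included). The order within Dcx, Stmn3, Gap43, Map1b and Cdk5r1 was not resolved between neighbours (exact adjusted p from 0.24 to 0.95), nor was Stmn2 against Cd24a (0.36). The members of a pair were read in the same cells, so that the test compares genes within experiments. Pairs of genes outside the set were not tested, so the count of pairs is not read as particular to these genes.

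**Figure D3:**
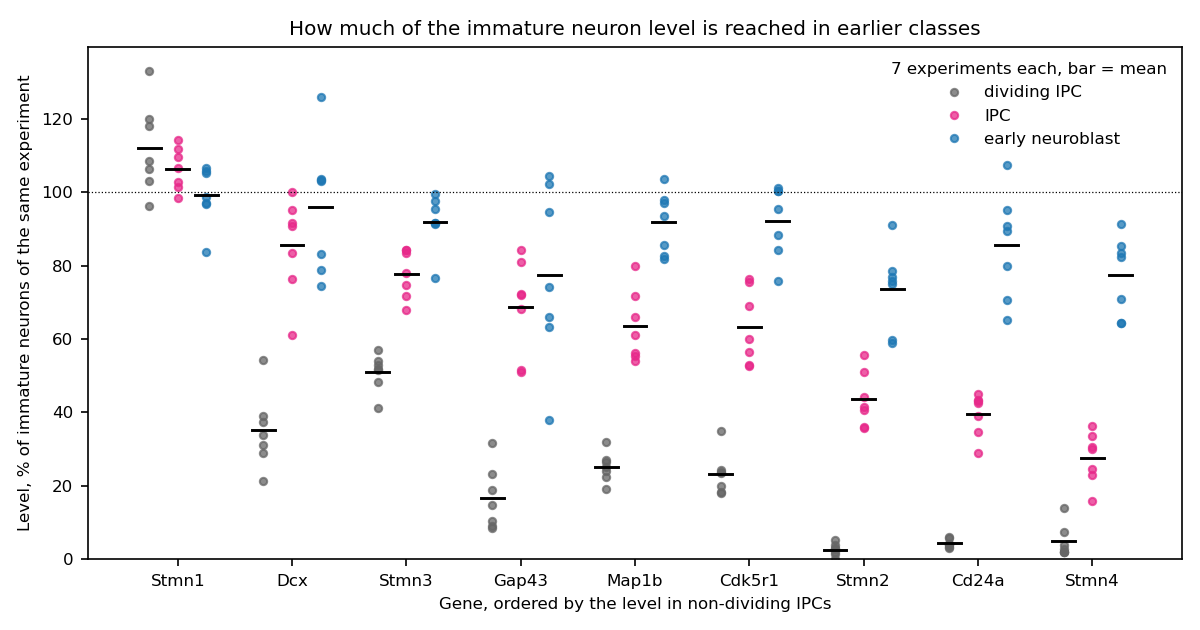
Level of each gene in dividing IPCs, non-dividing IPCs and early neuroblasts as a percentage of the level in immature neurons of the same experiment, with 1 point per experiment, 7 per class, and a bar for the mean. In non-dividing IPCs the means fall from 106% for Stmn1 to 27.7% for Stmn4, and in dividing IPCs Stmn2, Cd24a and Stmn4 lie at 2.60%, 4.34% and 4.86%.

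Within IPCs, 8 of the 9 genes were lower in dividing cells, by sizes that spread from 1.48-fold for Stmn3 to 16.7-fold for Stmn2. Dividing IPCs also held less of the commitment markers (6004 ± 935 against 9486 ± 813 CPM, SD, n = 7). Late markers were lower too (160 ± 23.5 against 453 ± 179 CPM), and the part of lineage stage in these differences was not tested. Of 5591 genes tested in edgeR, 52.1% were called, 25.5% as lower and 26.6% as higher in dividing cells. The median log2 fold change of the 9 genes was -1.34, against -0.02 over all genes tested. Stmn2, Cd24a, Stmn4 and Gap43 passed the filter on low values (detection in either class) only through non-dividing IPCs. There 51.55%, 60.1%, 40.5% and 34.9% of cells had a UMI, against 9.86%, 18.8%, 15.1% and 16.2% of dividing IPCs. These genes also had the largest falls, and the count and the median include them. Stmn3, Map1b, Cdk5r1 and Dcx passed in both classes and were lower in dividing cells too.

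Stmn2 had a lowest, median and highest level of 0, 29.0 and 48.2 CPM in dividing IPCs, against 334, 427 and 628 CPM in non-dividing IPCs. The groups did not overlap, and the log2 fold change was -4.06 ± 0.15 (edgeR adjusted p = 7.81e-26). Cd24a had 24.5, 41.3 and 62.5 CPM in dividing IPCs and also did not overlap, with a log2 fold change of -3.18 ± 0.10 (edgeR adjusted p = 3.8e-28). Stmn4 had 9.16, 14.9 and 119 CPM, where the highest value was that of the second experiment at 2 months, with the oligodendrocyte RNA. Its log2 fold change of -2.77 ± 0.18 (edgeR adjusted p = 5.1e-17) was -3.15 ± 0.17 without that experiment. Gap43 followed with -2.01 ± 0.16 (20.9 ± 9.93 against 88.4 ± 14.9 CPM, SD, n = 7; edgeR adjusted p = 5.58e-14). All of these were lower in 7 of 7 experiments.

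Map1b, Cdk5r1 and Dcx formed a middle group, with log2 fold changes of -1.34 ± 0.08, -1.32 ± 0.10 and -1.26 ± 0.10 (edgeR adjusted p = 3.74e-18, 1.32e-14 and 2.74e-14). Dcx was detected in the dividing cells all the same: it had 85.6, 118 and 148 CPM there, without overlap with the non-dividing cells, which is 35.1 ± 10.3% of the immature neuron level. Stmn3 changed least among those that fell, by -0.56 ± 0.07 (edgeR adjusted p = 2.12e-09). Stmn1 alone was higher in dividing IPCs, by 0.11 ± 0.04 (6098 ± 1110 against 5773 ± 777 CPM; edgeR adjusted p = 0.043, 5 of 7 experiments). That call was lost in 10 of 14 alternatives, with adjusted p-values from 1.23e-05 to 0.56 over all 14, and the direction held in all of them. Dividing IPCs were deeper (median 3762 to 16498 UMIs per cell in the 7 experiments) than non-dividing IPCs (2614 to 10676). All 9 calls held with the gates at 1500 UMIs. Those gates thinned the cells only to assign classes and kept their full counts. The part of depth in the levels was therefore not tested.

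In OPCs, the 7 members tested had log2 fold changes of the same sign as in IPCs, with other sizes for some. The comparison rested on 3 experiments (130 dividing cells in the 1-month and the second and the third experiment at 6–8 months), and 34.1% of 7916 genes were called, 18.6% as higher and 15.5% as lower in dividing cells. Of the 7 members tested, 1 rose and 4 fell. Stmn1 was at 93.9, 107 and 93.4 CPM in non-dividing OPCs of these experiments and at 1505, 1988 and 1698 CPM in dividing OPCs, without overlap. The log2 fold change was 4.14 ± 0.08 (edgeR adjusted p = 2.24e-41), or 17.7-fold. Map1b fell by 1.41 ± 0.21 on the log2 scale (27.8 ± 15.2 against 82.7 ± 13.9 CPM, edgeR adjusted p = 3.35e-07), Stmn4 by 0.83 ± 0.14 (edgeR adjusted p = 5.15e-06), Dcx by 0.81 ± 0.22 (edgeR adjusted p = 0.0025) and Stmn3 by 0.37 ± 0.10 (edgeR adjusted p = 0.0017). The calls of Dcx and Stmn3 were each lost when 1 experiment was left out, with adjusted p = 0.059 without the third experiment at 6–8 months (and 0.078 in DESeq2) for Dcx and up to 0.18 for Stmn3, without the second at 6–8 months or without the block. Gap43 and Cdk5r1 did not pass (edgeR adjusted p = 0.17 and 0.15). Stmn2 and Cd24a were below the filter, with no Stmn2 UMI in 130 dividing OPCs, which allows up to 2.31% of cells with a UMI and sets no limit on cells that express the gene.

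For 3 genes the difference between dividing and non-dividing cells was not the same in IPCs and OPCs. This was a test of the difference itself (an interaction in edgeR over the 3 shared experiments). Of 8549 genes, 5.74% were called, 3.44% as lower and 2.3% as higher in IPCs. The difference of log2 fold changes, IPC minus OPC, was -3.86 ± 0.14 for Stmn1, -2.40 ± 0.29 for Stmn4 and -1.57 ± 0.25 for Gap43 (edgeR adjusted p = 8.88e-20, 1e-06 and 6.87e-05). For Stmn1 the starting levels differed: non-dividing IPCs of these experiments were at 6186 ± 824 CPM and non-dividing OPCs at 98.3 ± 7.97 CPM (SD, n = 3). Gap43 was at 29.4 ± 9.27 CPM in dividing IPCs of these experiments and at 138 ± 43.8 CPM in dividing OPCs. For Map1b and Dcx the differences were 0.04 and -0.34, with intervals of ±2 SE from -0.49 to 0.57 and from -0.86 to 0.18. Cd24a (-3.61 ± 1.26, edgeR adjusted p = 0.093) and Cdk5r1 (-0.85 ± 0.29, edgeR adjusted p = 0.090) did not pass. Cd24a passed in DESeq2 (adjusted p = 0.0064) and in edgeR without the filter (0.032) or without the 1-month experiment (0.0056). It was near the floor in OPCs, at 2.78 CPM in dividing and 2.22 CPM in non-dividing cells.

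**Figure D4:**
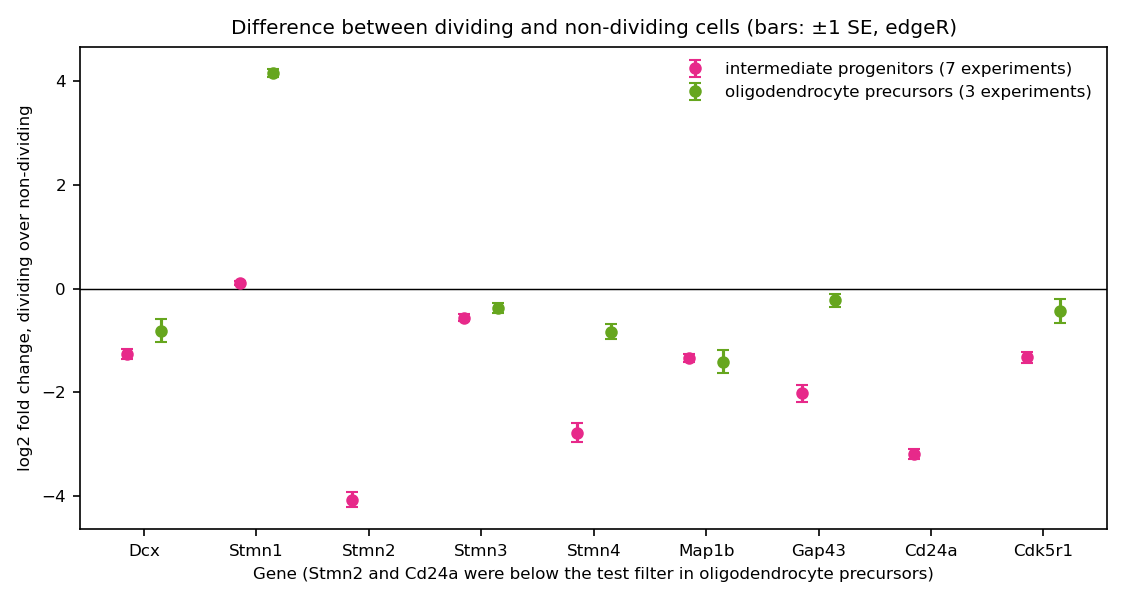
log2 fold change of dividing over non-dividing cells for each gene, with bars of ±1 SE from edgeR, in intermediate progenitors (7 experiments) and oligodendrocyte precursors (3 experiments). Stmn1 is at 0.11 and 4.14, Map1b at -1.34 and -1.41, and Stmn4 at -2.77 and -0.83.

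Between dividing radial-glia-like cells and dividing IPCs, Dcx made the largest step of the 5 genes tested. Only 5 of the 9 genes passed the filter on low values (detection in 20% of cells in one class or the other), so that no count over the set is read here. Stmn2, Stmn4, Gap43 and Cd24a did not pass and are outside this ranking. Of 6297 genes tested, 14.4% were higher in dividing IPCs and 27.9% were called. Dcx had 0, 3.68 and 42.5 CPM in dividing radial-glia-like cells, from 10 UMIs in 142 cells, and no overlap with dividing IPCs. It passed the filter only through dividing IPCs, 52.5% of which had a UMI, against 5.63% of dividing radial-glia-like cells. The log2 fold change was 4.21 ± 0.31 (edgeR adjusted p = 8.49e-23), higher in 7 of 7 experiments. Stmn3 rose by 1.54 ± 0.13 (161 ± 91.7 against 360 ± 41.3 CPM, edgeR adjusted p = 2.1e-19, 6 of 7 experiments) and Stmn1 by 0.81 ± 0.06 (3699 ± 514 against 6098 ± 1110 CPM, edgeR adjusted p = 5.2e-21, 7 of 7). Map1b had a log2 fold change of -0.00 ± 0.09 (109 ± 30.1 against 127 ± 29.6 CPM). For Cdk5r1 the means, 63.9 ± 75 and 72.2 ± 21.0 CPM, lay close and the log2 fold change was 1.20 ± 0.24 (edgeR adjusted p = 3.6e-05), a call that was lost with cells gated at 1500 UMIs (adjusted p = 0.165). Its level in dividing radial-glia-like cells was 212 CPM in the third experiment at 2 months, with 6 cells, and 115 CPM in the second, with 14 cells, both above dividing IPCs of the same experiments, and 11.0 to 52.2 CPM in the other 5.

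From quiescent stem cells to dividing radial-glia-like cells, Stmn1 made the largest step of the 4 genes tested. It had 290, 435 and 658 CPM in quiescent cells and 3044, 3642 and 4538 CPM in dividing ones, without overlap, with a log2 fold change of 2.75 ± 0.11 (edgeR adjusted p = 1.94e-44). In this comparison 55.3% of 6078 genes were called, 27.8% as higher, and 4 of the 9 genes passed the filter. The dividing class required at least 5 of 8 glial markers, the quiescent class at least 6 and more stem cell than astrocyte markers. Dividing cells also held more of the commitment markers (985 ± 370 against 190 ± 102 CPM, SD, n = 7). Glial markers were lower in them (7647 ± 980 against 41718 ± 4573 CPM). The part of lineage stage in these differences was not tested. Stmn3 rose by 0.95 ± 0.16 in 7 of 7 experiments (62.2 ± 10.6 against 161 ± 91.7 CPM, edgeR adjusted p = 3.05e-07). Cdk5r1 rose by 1.33 ± 0.33 (edgeR adjusted p = 0.00028), which was lost with cells gated at 1500 UMIs (adjusted p = 0.187). It passed the filter only through dividing cells, 21.1% of which had a UMI against 3.95% of quiescent cells, and was below the filter, so without a test, when the second or the third experiment at 2 months or the third at 6–8 months was left out. Map1b was at 105 ± 40.5 and 109 ± 30.1 CPM with a log2 fold change of 0.20 ± 0.15 (edgeR adjusted p = 0.28), and passed with 0.40 when counts were scaled by total UMIs (adjusted p = 0.020). Map1b was thus seen in quiescent stem cells at 20.6 ± 6.95% of its immature neuron level, where Dcx, Stmn2 and Cd24a were at 1.14 ± 1.86%, 0.543 ± 0.702% and 0.635 ± 0.682%. For the latter 3 genes, quiescent cells held 14, 40 and 28 UMIs in 1747 cells, and mural cells, which should lack them, 4, 0 and 2 UMIs in 859 cells at median depths of 901 to 3214 UMIs against 1286 to 6234. The Dcx and Cd24a levels are not told apart from free RNA by these counts.

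Several of the 9 genes were also found in the oligodendrocyte lineage. In OPCs, Gap43 had 135, 169 and 188 CPM, against 105, 127 and 148 CPM in immature neurons, and Stmn3 had 407, 522 and 567 CPM, which overlapped with IPCs (465 to 665 CPM) and lay below immature neurons (610 to 827 CPM). Stmn4 had 134, 163 and 408 CPM there, the highest in the second experiment at 2 months, with the oligodendrocyte RNA. Dcx, with 48.5, 71.9 and 93.9 CPM in OPCs, lay below the range of non-dividing IPCs, early neuroblasts and immature neurons and overlapped with dividing IPCs (85.6 to 148 CPM). OPCs held 403 ± 128 CPM of the neuronal commitment markers, against 8687 ± 1106 CPM in immature neurons, and their share in these levels was not tested. Cd24a and Stmn2 were near background in OPCs, with medians of 3.42 and 3.01 CPM.

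When OPCs became newly formed oligodendrocytes, the set split. In 5 experiments, where 51.8% of 7060 genes were called (24.4% higher, 27.4% lower), Map1b rose and 6 genes fell. Map1b was at 92.1, 92.2, 74.8, 66.8 and 89.4 CPM in OPCs (1 month, the first and the third at 2 months, the second and the third at 6–8 months) and at 788, 1638, 982, 883 and 1119 CPM in newly formed oligodendrocytes. The groups were far apart, with a log2 fold change of 3.68 ± 0.11 (edgeR adjusted p = 3.25e-25), or 12.8-fold. Its level there lay above that of immature neurons (344 to 610 CPM) in all 5 experiments, and commitment markers were at 229 ± 104 CPM in these cells.

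The log2 fold change was -3.58 ± 0.33 for Dcx and -3.55 ± 0.19 for Stmn3 (edgeR adjusted p = 6.32e-12 and 1.37e-18), and -2.36 ± 0.18 for Gap43 and -1.90 ± 0.27 for Cdk5r1 (2.92e-14 and 1.17e-07), each lower in 5 of 5 experiments. Dcx passed the filter only through OPCs, and the count of 6 includes it. Of newly formed oligodendrocytes 5.42% had a Dcx UMI (9 UMIs in 166 cells), against 26.0% of OPCs over all 7 experiments. Cdk5r1 was also low in newly formed oligodendrocytes (8.78 ± 5.43 against 60.8 ± 29.4 CPM in OPCs). At that level it too passed the filter only through OPCs, and the count of 6 includes it as well. Stmn1 fell by 1.27 ± 0.17 (edgeR adjusted p = 6.01e-08) in 4 of 5 experiments and Stmn4 by 1.04 ± 0.15 (edgeR adjusted p = 3.48e-07) in 5 of 5. The exception for Stmn1 was the third experiment at 2 months, with 212 CPM in 11 cells, against 28.7 to 46.5 CPM in the others.

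In mature oligodendrocytes the levels turned again, which is given as a description, since no test of this step was set. Stmn1 had 3694, 4397 and 4729 CPM and Stmn4 2106, 2210 and 3365 CPM in 7 experiments, both far above newly formed oligodendrocytes (28.7 to 212 and 43.1 to 86.6 CPM). Stmn4 was higher in these cells than in immature neurons in all 7 experiments. Map1b was back at 65.4, 74.5 and 96.4 CPM, near its OPC level. Stmn3 had 20.8 to 29.0 CPM, and Gap43, Dcx, Stmn2 and Cd24a had medians of 0.621, 1.53, 0.892 and 0.510 CPM. Commitment markers were at 505 ± 63.1 CPM in mature oligodendrocytes.

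**Figure D5:**
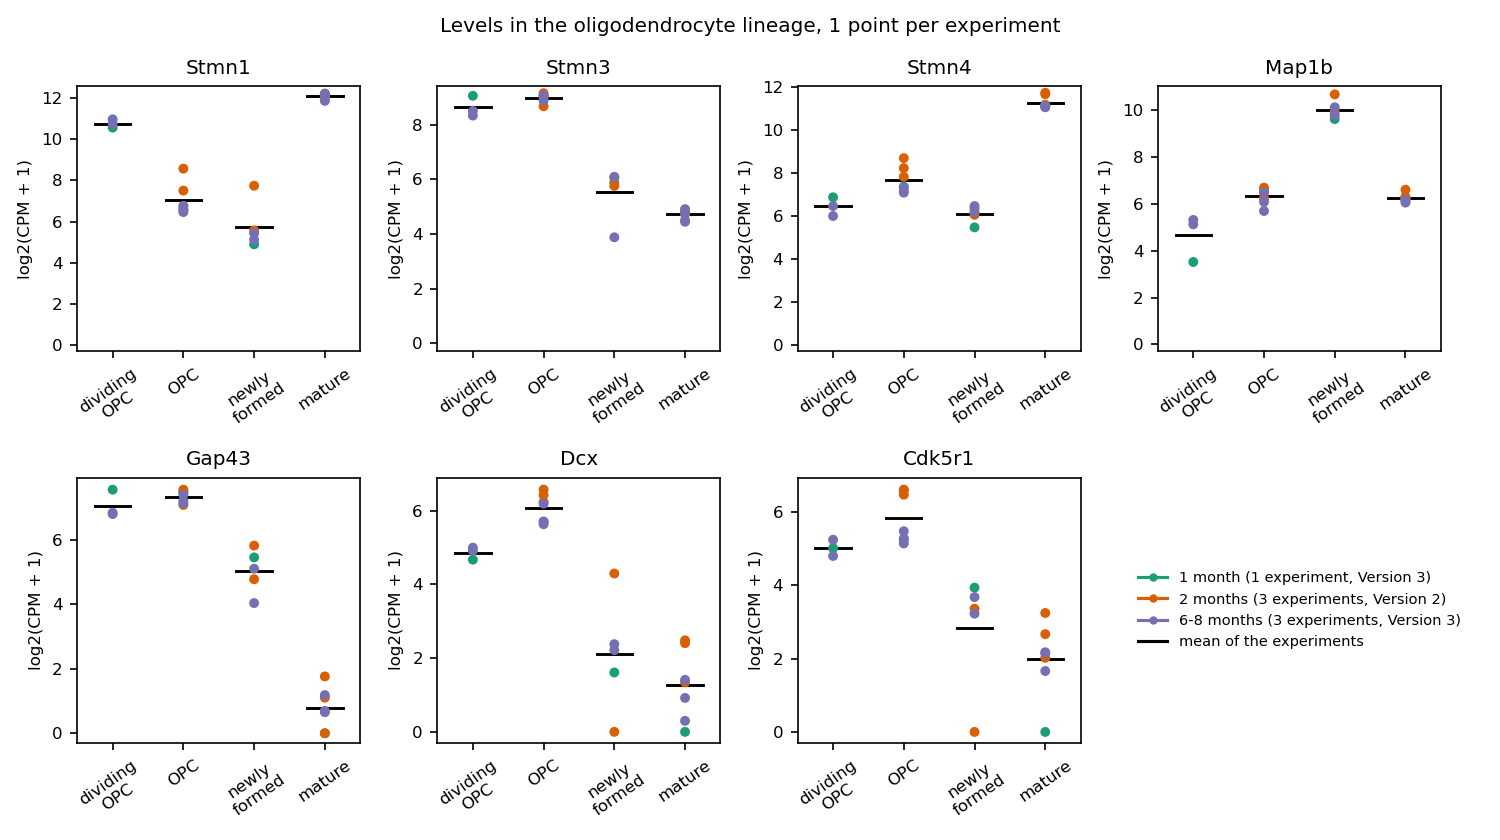
Level, as log2(CPM + 1), of 7 genes in dividing OPCs (3 experiments), OPCs (7), newly formed (5) and mature oligodendrocytes (7), with 1 point per experiment coloured by age and a bar for the mean. Map1b peaks in newly formed oligodendrocytes at a mean of 10.03, where Stmn1 is at 5.75 and Stmn4 at 6.09, and both of these are highest in mature cells at 12.07 and 11.26.

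Outside the neural lineages most of the genes were low. Microglia held Cdk5r1, and endothelial cells held 2 exceptions. Stmn2 had 0, 118 and 213 CPM there, 143 UMIs in 410 cells, and was detected in 6 of 7 experiments, although commitment markers were at 30.8 ± 43.1 CPM and Dcx had no UMI in the 410 cells, which allows up to 0.732% of cells with a UMI. Mural cells, dissociated and sequenced beside them, had no Stmn2 UMI in 859 cells (up to 0.349% of cells with a UMI), at median depths of 901 to 3214 UMIs against 783 to 4070 in endothelial cells. Stmn1 was at 386, 619 and 856 CPM in endothelial cells, against 31.5, 63.5 and 261 CPM in mural cells. The highest mural value was that of the second experiment at 2 months, with the oligodendrocyte RNA. Cd24a and Dcx had medians of 0 CPM in both. In microglia, 640 of the 676 cells came from the first experiment at 2 months, where Stmn1 had 100 UMIs and Cdk5r1 96.

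Age could hardly be tested, with a single experiment at 1 month. Between early neuroblasts of 6–8 months (3 experiments) and 1 month (1 experiment), 3 of 4869 genes passed in edgeR, 0.0616%, with 183 at an unadjusted p under 0.05, and none of the 9 did. The fit took its spread from all 7 experiments, and the single experiment at 1 month is assumed to vary like the others. DESeq2 called 0 genes. Gap43 was at 133 CPM at 1 month and 92.6, 120 and 39.9 CPM at 6–8 months, with a log2 fold change of -0.69 ± 0.32 (unadjusted interval of ±2 SE from -1.33 to -0.04, edgeR adjusted p = 1.00), and -0.33 without the third experiment at 6–8 months. For Dcx the values were 302 CPM and 458, 306 and 375 CPM, with a log2 fold change of 0.34 ± 0.26.

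The 2-month experiments stood apart from the others for several genes, most often for Cdk5r1, Cd24a and Stmn2. This is a description, since age and chemistry cannot be told apart here. Genes outside the set were not compared in this way, so the separation is not read as particular to these genes. Cd24a in immature neurons was at 1367, 1475 and 1829 CPM at 2 months and at 619 to 916 CPM in the 4 experiments of the other ages. Cdk5r1 was at 423, 482 and 492 CPM against 179 to 272 CPM. The Cdk5r1 ranges were apart in IPCs, dividing IPCs, early neuroblasts and immature neurons, and the Cd24a ranges in the last 2 of these. Stmn2 went the other way in IPCs (334 to 394 CPM at 2 months against 427 to 628 CPM) and in early neuroblasts (525 to 709 against 716 to 1028 CPM). Ranges were also apart for Gap43 in immature neurons, Map1b in dividing IPCs and Stmn4 in early neuroblasts, higher at 2 months, and for Stmn3 in immature neurons, lower at 2 months. The comparisons between classes above were made within experiments.

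Related genes were taken from lists set for this account. The lists were chosen with earlier results of these data known, so their shares, here and in the next paragraph, are descriptions. From IPC to early neuroblast, where 13.6% of all genes tested were higher and 10.9% lower, 11 of 16 growth cone and neurite genes rose and 1 fell, with a median log2 fold change of 0.38. The largest were L1cam, a neuronal adhesion molecule (1.16 ± 0.21, edgeR adjusted p = 1.6e-05), Basp1, a membrane protein related in function to Gap43 (0.77 ± 0.06, 2.25e-15) and the adhesion molecule Ncam1 (0.72 ± 0.07, 8.68e-12), and the gene that fell was Marcks. Of 12 microtubule genes tested (17 listed), 5 rose and 1 fell. Mapt, which encodes tau, rose by 1.23 ± 0.10 (edgeR adjusted p = 7.4e-15), Mapre3 by 0.78 ± 0.19 and Ndel1 by 0.72 ± 0.20, and Dclk1, the closest relative of Dcx, fell by 0.36 ± 0.12 (edgeR adjusted p = 0.020). Of 5 collapsin response mediator genes 3 rose, Dpysl4 by 1.29 ± 0.22, Dpysl5 by 0.94 ± 0.16 and Dpysl2 by 0.22 ± 0.07, and of 3 Cdk5-related genes tested Pak1 rose by 0.56 ± 0.17. From early neuroblast to immature neuron, where 1.09% of all genes were higher, only Mapt (0.26 ± 0.07, edgeR adjusted p = 0.024) and Basp1 (0.20 ± 0.05, edgeR adjusted p = 0.0055) rose among these lists and none fell.

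In dividing against non-dividing IPCs, where 25.5% of all genes tested were lower and 26.6% higher, 14 of 15 growth cone genes tested fell and none rose, led by Basp1 (-2.03 ± 0.07), Mllt11 (-1.38 ± 0.08) and Rtn1 (-1.24 ± 0.06). All 4 collapsin response mediator genes tested fell, Crmp1 by 1.30 ± 0.09, Dpysl5 by 1.03 ± 0.18 and Dpysl3 by 0.75 ± 0.07. Of 13 microtubule genes 7 fell and 2 rose. Nde1, which also acts at centrosomes and in mitosis, rose by 3.29 ± 0.20 (edgeR adjusted p = 4.64e-18), and the kinesins Kif21b and Kif5c fell by 1.61 ± 0.15 and 1.59 ± 0.09. Of 4 Cdk5-related genes Cdk5rap2, a centrosome protein, rose by 1.62 ± 0.20, whereas Pak1 and Pak3 fell by 0.83 ± 0.17 and 0.65 ± 0.19 and Cdk5 by 0.50 ± 0.16. The median log2 fold change was -0.61 for the growth cone list, -0.89 for the response mediators, -0.30 for the microtubule list and -0.57 for the Cdk5 list, against -0.02 over all genes tested.

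Across the 14 classes, the genes most like Dcx in mean log2(CPM + 1) were Add2, Cplx1 and Rab3c (Pearson r = 0.991, 0.987 and 0.983), among 7860 genes that reach 50 CPM in a class and are neither members nor gate genes. These are descriptions over 14 means that share libraries. Stmn2 was nearest to Sema3c, Klhl35 and Cldn3 (0.933, 0.927 and 0.915), Cd24a to Islr2, Tac2 and Plppr3 (0.985, 0.979 and 0.978), and Gap43 to Ly6h, Mgat5b and Syt16 (0.975, 0.970 and 0.969). Stmn3 was nearest to Ctxn1, Lrp11 and Stau2 (0.976, 0.973 and 0.971), Stmn4 to Jph4, Shtn1 and Cntn2 (0.966, 0.954 and 0.942), and Cdk5r1 to Camsap1, Zbtb18 and Rnf165 (0.956, 0.926 and 0.924). Map1b was nearest to Tuba1a, Dda1 and Polr2g (0.936, 0.927 and 0.916). Stmn1 had the weakest match, with Adh5, Csnk2b and Psmb4 at 0.910, 0.885 and 0.883. Within the set, Dcx was closer to Stmn3 (0.892) and Cdk5r1 (0.897) than to Stmn4 (0.530).

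On GRCm38 (GENCODE M21) the 9 genes lie on 9 chromosomes. Dcx lies at chrX:143855842-143933311 (– strand), Stmn1 at chr4:134468320-134473843 (+), Stmn2 at chr3:8509360-8561606 (+), Stmn3 at chr2:181306459-181314500 (–) and Stmn4 at chr14:66344296-66361680 (+). Map1b lies at chr13:99421446-99516540 (–), Gap43 at chr16:42248442-42340651 (–), Cd24a at chr10:43578284-43584265 (+) and Cdk5r1 at chr11:80477023-80481184 (+).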

How the data were processed

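The authors mapped reads with Cell Ranger 3.0.2 to a custom mm10 genome, merged 8 libraries without normalization and deposited UMI counts for 31058 features. Cutadapt 1.18 is named in the submitters' processing notes without its role, and Seurat was used by the authors on the merged matrix. Cells with over 500 genes and under 10% mitochondrial counts were kept, as in the study. Doublets were limited by the gates, which exclude cells with markers of other lineages, and no doublet caller was run. The numbers of markers required were set from markers, cell numbers and depth, and were raised for Version 3 once its depth was seen.

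Counts were summed per class and experiment (at least 5 cells) and scaled to CPM. Experiments of 1 age are separate days, and the 2 libraries of the first 2-month experiment were summed. Genes detected in 20% of cells or more in one of the classes compared were tested with edgeR 4.0.16 (R 4.3.3, quasi-likelihood, TMM, experiment as a block, since all classes of a day share their animals), leaving out 114 gate genes. DESeq2 1.42.0 was an alternative. Fold changes are log2 from edgeR with SE. The order of genes used log2(CPM + 1) and exact sign-flip tests in Python 3.11.15. The fit was tested on simulated counts.

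The genes and lists were chosen with earlier results of these data known. Named were the 9 genes, the 3 called members of each list with the largest change in the first 3 comparisons, and the 3 genes most alike in class means. Marcks, Dclk1 and Cdk5 were named after their values were seen. The precision is that of counting and of 3 to 7 experiments, and limits for counts of 0 (3 counts) cover counting error only.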

Additional observations from a re-analysis of the deposited data

Results flagged for a closer look

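Of 63 sets of experiments (9 genes in 7 classes), 5 held a value far from the others by Dixon's criterion, where chance gives about 1 in 20. Stmn4 in quiescent stem cells was 153 CPM in the second experiment at 2 months, against 21.0 CPM for the nearest, and this is the experiment with oligodendrocyte RNA in all classes. Gap43 in early neuroblasts was 39.9 CPM in the third experiment at 6–8 months (13 UMIs), nearest 92.6 CPM. Map1b in immature neurons was 344 CPM in the first experiment at 6–8 months, nearest 487 CPM. Stmn2 in dividing IPCs was 0 CPM in the same experiment (30 cells), nearest 13.0 CPM. Cdk5r1 in quiescent stem cells was 34.5 CPM in the third experiment at 2 months (5 UMIs in 74 cells), nearest 14 CPM.

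The difference between dividing and non-dividing cells was not the same in IPCs and OPCs for Stmn1, Stmn4 and Gap43. In edgeR's interaction test it differed by -3.86, -2.40 and -1.57 on the log2 scale. What lies behind these differences was not tested.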

How the results depend on the processing

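Over 835 member alternatives, none of the 41 called results changed direction, 29 kept their call in every alternative run and 12 lost it at least once. Results without a call gained one in 11 alternatives. Counts of called genes moved as follows. From IPC to early neuroblast (1049) they were 512 in DESeq2, 361 with stricter gates, and 631 to 1106 leaving out 1 experiment each (lowest without the 1-month experiment). From early neuroblast to immature neuron (82) they were 23 in DESeq2, 520 with gates at 1500 UMIs, 43 in Version 3 alone and 45 to 89 leaving out 1 experiment (lowest without the first at 6–8 months). For dividing OPCs (2699) they were 1549 in DESeq2 and 1578 to 2671 leaving out 1 (lowest without the third at 6–8 months). The interaction (491) gave 747 without the filter and 215 to 421 leaving out 1, and Gap43 lost its call there with gates at 1500 UMIs (-1.06, adjusted p = 0.0749). Dividing IPC against dividing radial-glia-like cells (1755) gave 659 with gates at 1500 UMIs and 1121 to 1759 leaving out 1. With gates at 1500 UMIs, dividing radial-glia-like against quiescent cells (3359) gave 1926, and newly formed oligodendrocytes against OPCs (3657) gave 5744 without the filter. Age (3) gave 0 in DESeq2 and with stricter gates, 8 without the filter and in Version 3 alone, 11 with gates at 1500 UMIs and 1 to 8 leaving out 1. The order of genes gave 0 of 36 pairs in Version 3 alone, where 4 experiments cannot reach the threshold.

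Without the replicate block, the counts were 271, 0, 1659, 1703, 180, 855 and 2308 for early neuroblast, immature neuron, dividing IPC, dividing OPC, the interaction, dividing IPC against dividing radial-glia-like, and newly formed oligodendrocytes. The calls lost without the block were those of Dcx, Stmn3 and Cdk5r1 from IPC to early neuroblast, Stmn2, Stmn4 and Cd24a from early neuroblast to immature neuron, Stmn1 in dividing IPCs and Stmn3 in dividing OPCs.

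Signs turned only for members that had not passed. From IPC to early neuroblast, Stmn1 was 0.032 with gates at 1500 UMIs and 0.049 with stricter gates. From early neuroblast to immature neuron, Stmn1 was 0.0082 with total UMIs, 0.057 without the filter, 0.0014 without the block, 6.32e-05 in Version 3 alone and -0.018 to 0.018 leaving out 1, and Dcx -0.18 with stricter gates and -0.051 to 0.039 leaving out 1. In the interaction, Map1b was -0.039 with total UMIs and -0.13 to 0.36 leaving out 1, Stmn2 -1.33 in DESeq2, Stmn3 0.19 without the filter, 0.014 with stricter gates and -0.20 to 0.22 leaving out 1, and Dcx 0.018 with gates at 1500 UMIs. Map1b in dividing IPC against dividing radial-glia-like cells was 0.066 in DESeq2, 0.091 without the filter, 0.11 without the block and -0.071 to 0.21 leaving out 1, and against quiescent cells -1.75e-06 to 0.33. With age, Map1b was 0.010 with total UMIs, 0.017 in DESeq2 and -0.083 to 0.10 leaving out 1, and Stmn2 0.075 with gates at 1500 UMIs, 0.22 with stricter gates and -0.27 to 0.088 leaving out 1. Scaling by total UMIs moved the share of higher calls from 55.4% to 43.5% at the IPC to neuroblast step and from 50.4% to 63.3% at the quiescent step, where the median of all genes went from 0.01 to 0.21, and DESeq2 moved it from 51.2% to 39.1% at the immature neuron step. The causes were not tested.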
